A study of Mus musculus with 2 samples.

Results

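Chromatin accessibility was examined at the loci of 54 genes that encode chromatin and DNA methylation regulators, out of 21883 protein-coding genes. The genes were taken from a named list of DNA methyltransferases, Tet dioxygenases, histone methyltransferases and demethylases, acetyltransferases, deacetylases, ATP-dependent remodellers and a bromodomain reader. A locus was the mm10 span of the gene with 10 kb on each side, and every ATAC-seq peak that touched it was counted once. By function the list held 24 writers, 20 erasers, 9 remodellers and 1 reader. The 2 ATAC-seq libraries, titled Control and Treatment, came from CD8+ T cells of mice, and the name Peml-1 that the title of the series gives these cells is not explained in the labels. A separate treatment field calls the first of these "Treatment" and the second "Combined treatment", which conflicts with the titles. Neither label names an agent, and the genotype field names no allele; age, strain and the number of animals per library were not stated. Control and treatment are used here as in the titles, and since each is a single library, no difference was checked against replicate spread.

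Writers place chemical marks on DNA or histones, erasers remove them, remodellers use ATP to move or eject nucleosomes, and readers bind the marks. In CD8+ T cells, Dnmt3a and the Polycomb enzyme Ezh2 are known for silencing genes as effector and memory cells form, and Tet2 for its influence on memory differentiation. ATAC-seq maps where a transposase can reach the DNA, so a peak marks open chromatin at or near a gene and is not a measure of its transcript or protein.

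The kept lists held 85137 control and 64910 treatment peaks, of which 29.2% and 6.80% had no overlapping peak in the other library. Median reads covering a summit, recovered from the authors' fold enrichment and p-value, were 220 in control and 189 in treatment. The most common local background was held by 33.0% of control and 32.8% of treatment peaks. Divided by the narrowest peak width, it was 1.006 times as high in treatment as in control. All 8 CD8 T cell marker loci, among them Cd3e, Cd8a and Lck, held peaks in both libraries, with 6 to 12 each in control and 6 to 11 in treatment. The lists for B cells, with 20 peaks in each library, and myeloid cells, with 15 and 11, were not empty of peaks either. Having peaks at a locus thus does not by itself separate these cell types. A promoter peak, as defined below, was found at all 8 CD8 T cell markers in both libraries, and also at Cd4, Zbtb7b and the myeloid marker Itgam. Csf1r and Lyz2 had one in control only. No B cell, NK cell, erythroid, or neuron and liver marker had one in either library.

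Promoter windows of the regulators were touched by a peak in both libraries wherever they held at least 5 CG dinucleotides. RefSeq promoter sequences, from 250 bp before to 50 bp after an annotated start (build GRCm38.p6), were matched for 45 of the 54 genes, in 64 windows. A peak touched 60 of these windows in control and 60 in treatment, and the windows touched held 5 to 57 CG dinucleotides. A summit lay inside 36 of the 64 windows in control and 35 in treatment. The 4 windows with no peak in either library held 0 to 3. They were both Hdac9 starts, the upstream start of Kdm4c and the most upstream start of Dnmt1. Over all genes, windows with at most 3 CG held a control peak in 8.67% and a treatment peak in 7.001% of 5085 cases, against 79.6% and 75.5% of 15227 windows with at least 5 CG. These CG limits were set after the values had been seen.

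The contrast lies within a single gene at Kdm4c, a lysine demethylase of the Jumonji family, and its windows are shown with one of Hdac9, a class IIa deacetylase. The Kdm4c windows are chr4:74242247-74242546 and chr4:74251629-74251928 on the plus strand, and the Hdac9 window is chr12:34917046-34917345 on the minus strand. Each reads 5′ to 3′ along its gene, with capitals at every CG.
Kdm4c upstream start: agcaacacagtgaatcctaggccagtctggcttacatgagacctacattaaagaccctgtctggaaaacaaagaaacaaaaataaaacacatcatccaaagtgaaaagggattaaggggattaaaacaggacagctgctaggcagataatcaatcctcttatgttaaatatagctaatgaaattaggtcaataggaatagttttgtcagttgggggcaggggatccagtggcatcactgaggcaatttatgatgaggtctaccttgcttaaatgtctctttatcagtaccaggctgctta
Kdm4c downstream start: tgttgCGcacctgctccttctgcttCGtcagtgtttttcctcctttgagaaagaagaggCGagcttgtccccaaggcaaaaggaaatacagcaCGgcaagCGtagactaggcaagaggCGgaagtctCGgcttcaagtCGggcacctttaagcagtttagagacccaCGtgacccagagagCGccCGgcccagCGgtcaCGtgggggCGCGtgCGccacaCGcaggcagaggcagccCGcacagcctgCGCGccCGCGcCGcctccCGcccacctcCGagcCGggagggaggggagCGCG
Hdac9 upstream start: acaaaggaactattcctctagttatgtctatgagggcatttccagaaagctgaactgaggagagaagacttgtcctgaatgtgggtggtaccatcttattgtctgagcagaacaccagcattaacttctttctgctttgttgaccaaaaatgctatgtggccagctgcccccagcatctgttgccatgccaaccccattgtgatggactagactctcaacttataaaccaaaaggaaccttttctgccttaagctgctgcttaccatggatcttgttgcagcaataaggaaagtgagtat

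The upstream Kdm4c window held 0 CG and no peak. The downstream window held 28 CG and a summit in each library, covered by 1377 reads in control and 1559 in treatment. Hdac9 was the only one of the 54 genes with no promoter peak in either library, although its locus held 13 control and 10 treatment peaks. A promoter peak here is one within 1 kb of an annotated start, or of either gene end for the 9 genes matched by span alone (Arid2, Chd3, Hdac1, Hdac3, Kat6a, Kdm5a, Kdm6b, Kmt2b and Kmt2e).

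Over the 54 loci there were 484 control and 378 treatment peaks, a ratio of 0.781 (95% exact interval 0.681 to 0.895, counting error only, as are all intervals below). The loci of all protein-coding genes gave 64949 and 50433 peaks, a ratio of 0.777, close to that of the regulators. Peaks were denser at the regulators, with 8.11 per 100 kb of locus in control and 6.34 in treatment against 5.04 and 3.92 over all genes. Of the control peaks, 131 (27.1%, Wilson interval 23.3 to 31.2%) had no treatment counterpart, against 27.5% over all genes. Of the treatment peaks, 27 (7.14%, 4.96 to 10.2%) had no control counterpart, against 6.28%. The ratio depends on the lengths of the lists. With the control list reduced to its 64910 strongest peaks, as many as in treatment, it was 1.05 over the regulators and 1.01 over all genes, and the control-only and treatment-only shares were 15.0 and 18.5%. On the full lists, both shares lay within counting error of those over all genes. At least 1 control-only peak was found at 43 of the 54 genes (background 61.3%), all control peaks were shared at the other 11 (background 38.7%), and at least 1 treatment-only peak was found at 14 (background 16.5%). These calls depend on the number of peaks per locus, which was higher at the regulators, as given below. They were not repeated at loci of like peak number.

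**Figure D1:**
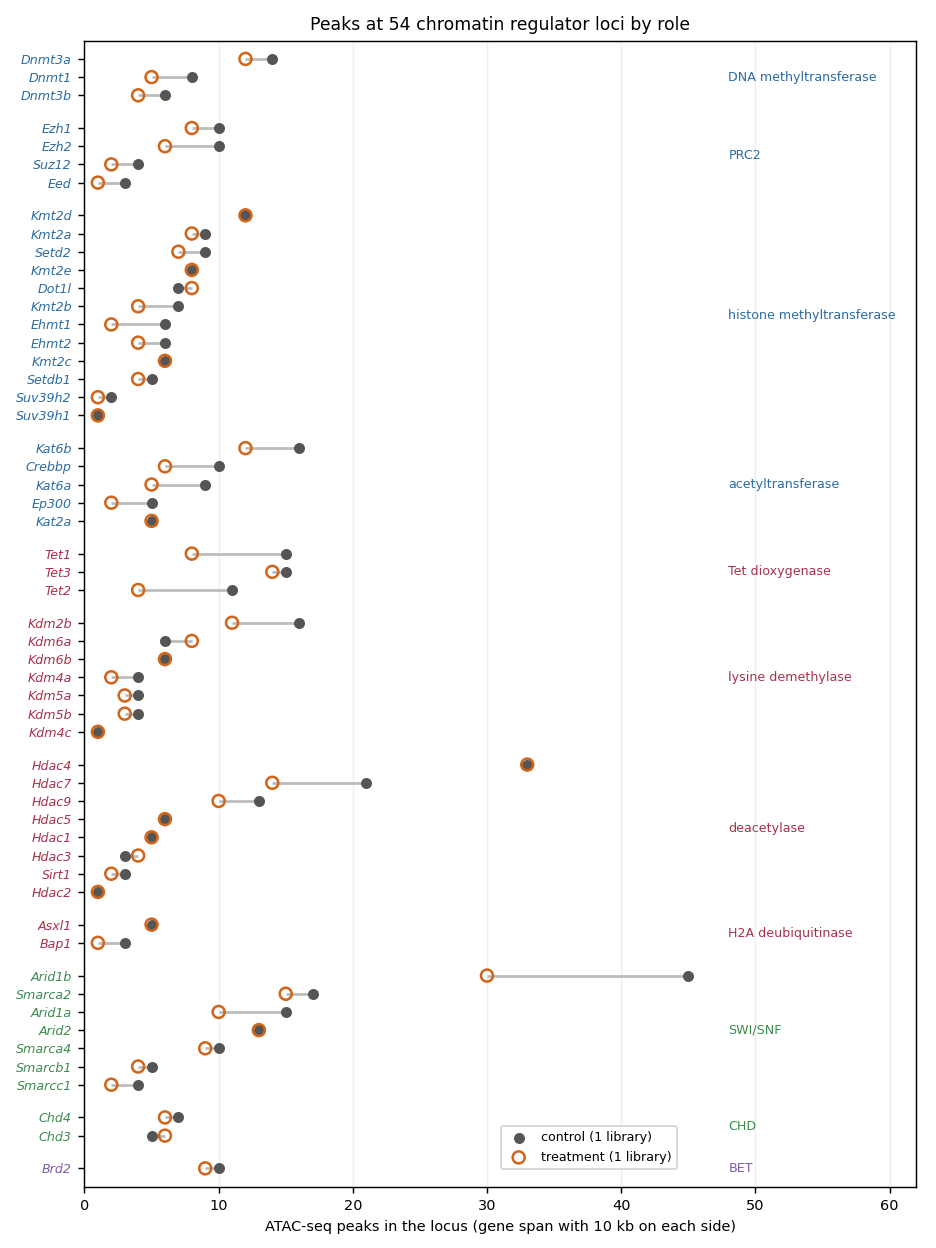
Number of ATAC-seq peaks per locus (x axis) for each of the 54 genes (y axis), grouped by role and coloured by class. Filled points are the control library and open points the treatment library. Tet1, Tet2, Ehmt1 and Arid1b show wide gaps to the left of control, and only Dot1l, Kdm6a, Hdac3 and Chd3 have the open point to the right.

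Fewer treatment than control peaks were found at 37 of the 54 genes, against 56% of the 17464 genes with a locus peak. As many were found at 13 (background 36.9%) and more at 4 (background 7.08%). A call past 1.5-fold, on counts with 0.5 added, was reached downward at 15 genes (background 24.7%) and upward at 0 (background 1.72%). Regulator loci held a median of 6.5 control peaks against 4 over all genes, so the counts were repeated at loci with at least 5 control peaks. Of 41 such regulators, 28 had fewer (background 77%), 10 as many (16.6%) and 3 more (6.35%), and 9 passed 1.5-fold downward (26.7%) and 0 upward (0.126%). The counts of 28 and 9 lie near or below the background. With lists of equal length, 17 of the 54 had fewer and 19 more, and 7 passed the call downward and 5 upward.

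Writers had 178 control and 133 treatment peaks, a ratio of 0.747 (0.592 to 0.941). Erasers had 175 and 141, a ratio of 0.806 (0.641 to 1.01), and remodellers 121 and 95, a ratio of 0.785 (0.594 to 1.04). The reader Brd2 had 10 and 9. Control-only shares were 29.8% (23.5 to 36.9%) in writers, 23.4% (17.8 to 30.2%) in erasers and 28.9% (21.6 to 37.6%) in remodellers, and treatment-only shares 6.02%, 6.38% and 9.47%. The intervals of the 3 classes overlap in peak number and in sharing. With lists of equal length the ratios were 1.02, 1.03 and 1.09. By gene, fewer treatment peaks were found at 18 of 24 writers, 11 of 20 erasers and 7 of 9 remodellers, and the call past 1.5-fold downward at 10, 4 and 1 of them. Over all genes with a locus peak these shares were 56 and 24.7%, and at loci with at least 5 control peaks 77 and 26.7%. The class counts were not limited to such loci, so they cover a different set from the 77 and 26.7%.

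Control peaks per 100 kb were 8.51 in writers, 6.58 in erasers and 10.2 in remodellers, with treatment values of 6.36, 5.30 and 8.02. The eraser values include Hdac9, the longest locus of the list at 890 kb, with 1.46 and 1.12 peaks per 100 kb. Class densities were not recomputed without Hdac9, so the low place of the erasers may rest on this gene. Brd2, a BET protein that binds acetylated histones, has a short locus of 30.8 kb and held 32.5 and 29.2 peaks per 100 kb, the highest density of the list in control. The gene span is only 10.8 kb of this locus, and 8 control and 6 treatment peaks lay in the flanks. Without flanks Brd2 had 2 and 3 peaks, so this density mostly describes its surroundings. With lists of equal length Brd2 had 7 and 9 peaks. Hdac7 followed in density with 29.2 and 19.5 per 100 kb, and Kmt2d with 19.2 in each library.

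Among the DNA methyltransferases, peaks on the full lists were fewer in treatment at each gene and no peak was found in treatment only. Dnmt1, which copies methylation onto new DNA strands, had 8 control and 5 treatment peaks. With lists of equal length, and with peaks of at least 100 reads, Dnmt1 had 5 and 5. Dnmt3a and Dnmt3b, which methylate unmarked DNA, had 14 and 12, and 6 and 4. The 3 control-only peaks of Dnmt1 all lay in the gene body, with summit folds over local background of 1.92, 4.57 and 5.33, below its other control peaks. Its promoter summit was covered by 1914 reads in control and 1985 in treatment (ratio 1.04, interval 0.973 to 1.10).

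Tet dioxygenases, which oxidise methylated cytosine, had 41 control and 26 treatment peaks, with 39.0% (25.7 to 54.3%) of the control peaks unshared. Most of the gap lay at Tet1, with 15 and 8 peaks, and Tet2, with 11 and 4. Tet3 had 15 and 14. At Tet1 and at Tet2 alike, 7 control peaks had no counterpart and no peak was in treatment only. With lists of equal length Tet1 and Tet2 still had fewer treatment peaks, with differences of −5 and −4.

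At Tet2 the control-only peaks included every peak in the 3′ part of the locus. Their summits were 1.1, 2.1, 35.4, 36.7, 65.2, 73.7 and 83.7 kb downstream of the annotated start. The peak at chr3:133478771-133479643, 65.2 kb in, had a fold of 16.8 and 275 reads at its summit, and the nearest treatment peak lay 30831 bp away. It ranked second among all control-only peaks of the 54 loci by fold. Neighbouring peaks at 73.7 and 36.7 kb had folds of 9.2 and 8.9 with 139 and 155 reads. No treatment peak lay beyond the shared one at 33.8 kb. The Tet2 promoter summit was present in both libraries, with 1281 reads in control, 1098 in treatment and a ratio of 0.857 (0.790 to 0.930), and its fold was 11.2 and 13.1.

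At Tet1 the control-only peaks were spread over both ends. One lay 6.4 kb upstream of the start, 1 at 6.0 kb, 2 near 30 and 40 kb, and 3 between 77 and 87 kb. The strongest, chr10:62804048-62804387, had a fold of 11.8 and 178 reads. The promoter summit had 296 reads in control and 190 in treatment (ratio 0.642, interval 0.532 to 0.773), the lowest of the 52 genes with a matched promoter pair. Within the gene body, the shared peak at 46.4 kb had a fold of 16.9 in control and 15.9 in treatment, while the one at 61.5 kb had 16.3 and 5.55.

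**Figure D2:**
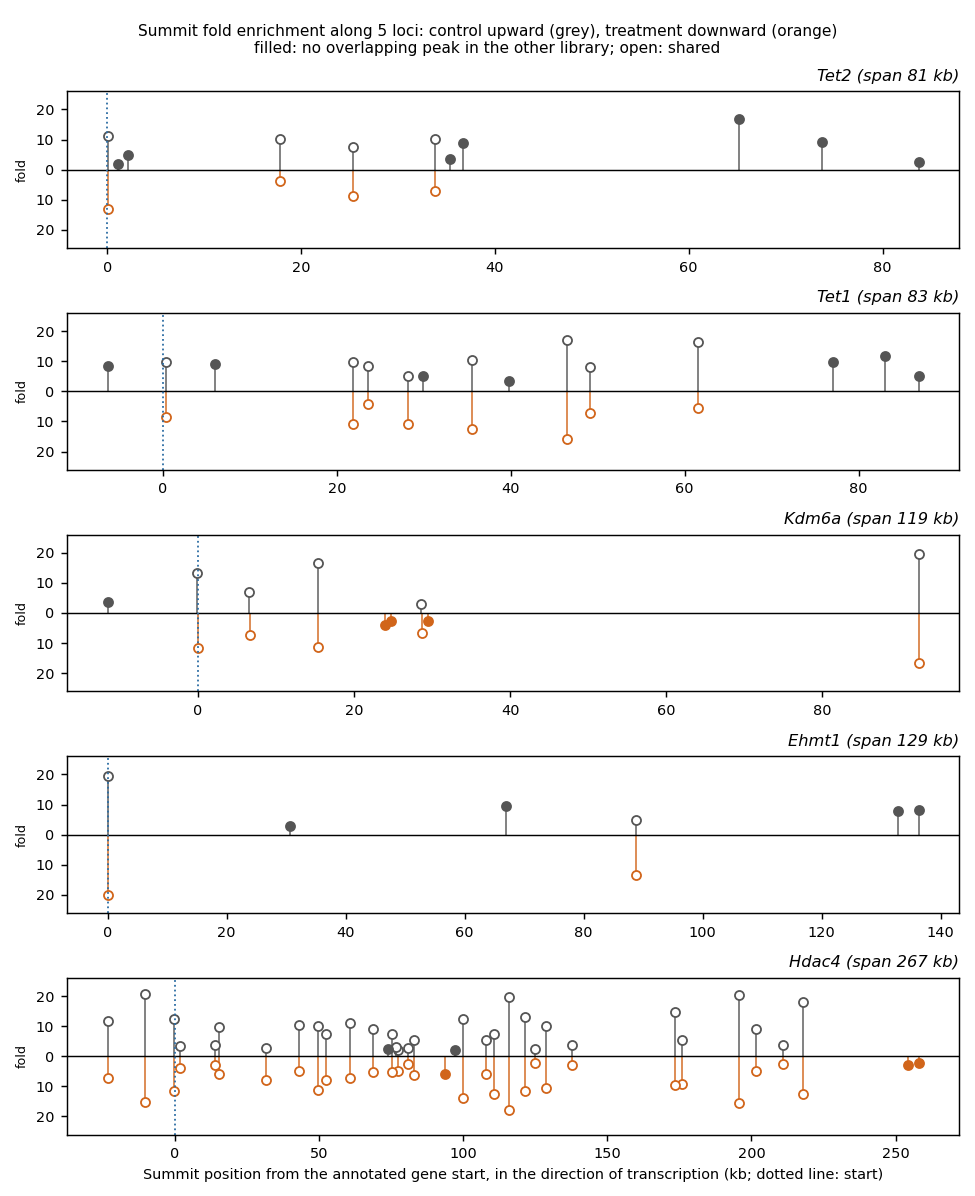
Summit fold over local background (y axis, control upward and treatment downward) against distance from the annotated gene start in kb (x axis) at Tet2, Tet1, Kdm6a, Ehmt1 and Hdac4. Filled points have no overlapping peak in the other library. Tet2 and Tet1 each show 7 filled control points and 0 filled treatment points, and Kdm6a shows 3 filled treatment points between 23.9 and 29.4 kb.

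All 3 Tet promoters had fewer summit reads in treatment, and the interval of each ratio lay below 1. Over all genes the interval lay below 1 at 63.8% of 13429 promoter pairs. Their median ratio was 0.856, close to the 0.857 of Tet2. Tet3 went from 1673 to 1226 reads, a ratio of 0.733 (0.680 to 0.789). The Tet windows are shown because the 3 promoters had ratios on the same side of 1, as most genes did. They lie on the minus strand at chr10:62887275-62887574 (Tet1), chr3:133544341-133544640 (Tet2) and chr6:83441629-83441928 (Tet3), and capitals mark the searched motifs found on either strand, GGGCGG (SP) and CCAAT (NFY).
Tet1: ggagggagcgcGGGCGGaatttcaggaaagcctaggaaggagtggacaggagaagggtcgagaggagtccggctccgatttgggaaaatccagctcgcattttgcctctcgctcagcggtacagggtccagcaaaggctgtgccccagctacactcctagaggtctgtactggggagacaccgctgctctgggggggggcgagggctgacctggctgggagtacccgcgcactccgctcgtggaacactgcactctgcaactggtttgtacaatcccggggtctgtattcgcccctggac
Tet2: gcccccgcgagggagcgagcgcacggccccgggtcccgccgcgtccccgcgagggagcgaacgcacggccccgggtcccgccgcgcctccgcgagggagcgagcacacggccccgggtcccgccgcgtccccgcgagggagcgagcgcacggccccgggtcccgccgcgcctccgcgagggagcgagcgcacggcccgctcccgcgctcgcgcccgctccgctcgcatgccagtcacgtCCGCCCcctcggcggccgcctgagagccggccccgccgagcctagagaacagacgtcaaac
Tet3: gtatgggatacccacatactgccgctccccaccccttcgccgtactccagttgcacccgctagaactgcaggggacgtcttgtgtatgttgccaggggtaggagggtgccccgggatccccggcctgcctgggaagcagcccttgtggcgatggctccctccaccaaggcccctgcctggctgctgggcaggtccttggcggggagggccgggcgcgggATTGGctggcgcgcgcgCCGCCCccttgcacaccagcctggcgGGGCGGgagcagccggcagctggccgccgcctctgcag

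The Tet1 window held 17 CG, Tet2 57 and Tet3 22. The Tet1 summit lay outside its window in both libraries, while the Tet2 and Tet3 windows held a summit in each. Each Tet window carried at least 1 GGGCGG. This motif was present in 49 of the 64 regulator windows (76.6%) and in 46.2% of all 21262 windows of this length. The motif was thus common to most of the regulator windows. It holds a CG itself, and the regulator windows held a median of 29.5 CG against 13 over all windows. The shares were not matched for CG number, and overlapping windows of the same gene were counted separately.

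The core of Polycomb repressive complex PRC2 had 27 control and 17 treatment peaks, with 9 in control only and 0 in treatment only. The catalytic subunits Ezh1 and Ezh2 had 10 and 8, and 10 and 6 peaks, although Ezh2 had 5 and 6 with lists of equal length. Eed, which binds the methyl mark the complex makes, had 3 and 1, and Suz12, which holds the complex together, had 4 and 2. With lists of equal length Eed had 2 and 1, and Suz12 2 and 2. The stronger control-only Eed peak, chr7:89954382-89954606, lay 26.5 kb downstream of the start in the flank, with a fold of 10.7 and 161 reads. At Suz12, only 1 control peak was unshared, since a single 2180 bp treatment peak covered 2 separate control peaks.

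The PRC2 promoters had ratios on both sides of 1. Eed had 1222 reads in control and 1467 in treatment (ratio 1.20, interval 1.11 to 1.30). Suz12 had 1963 and 1504, a ratio of 0.766 (0.716 to 0.820), and Ezh2 1959 and 1737, a ratio of 0.887 (0.831 to 0.946). Ezh1 had 738 and 746, with an interval that includes 1.

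Other histone methyltransferases had 78 control and 65 treatment peaks over 12 genes. Ehmt1, which with Ehmt2 forms a complex that methylates histone H3 in silent chromatin, had 6 and 2 peaks. Its 4 control-only peaks, with folds from 2.90 to 9.44, lay at 30.5, 67.0, 132.8 and 136.3 kb. The shared gene-body peak at 88.8 kb went the other way, with 75 reads in control and 215 in treatment, and the promoter summit had 1562 and 1642. Kmt2b, of the family that methylates active promoters, had 7 and 4 peaks, and Suv39h2, which methylates histones in constitutive heterochromatin, 2 and 1. Dot1l, which methylates the nucleosome core at transcribed genes, had 7 and 8. Its extra treatment peak is no new region, because the control peak of 1266 bp in its 5′ flank overlaps 2 treatment peaks of 466 and 484 bp. With 50 kb on each side, Dot1l had 21 and 16.

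Kmt2a had 9 and 8 peaks, Setd2, which methylates histones along transcribed genes, 9 and 7, Ehmt2 6 and 4, Setdb1 5 and 4 and Suv39h1 1 and 1. Kmt2c, Kmt2d and Kmt2e each had equal peak numbers in both libraries, but their peaks were not all shared. At Kmt2d, 12 and 12 peaks included 2 control-only and 2 treatment-only ones, with folds of 2.13 to 2.40. At every one of the 12 histone methyltransferases the promoter fold was higher in treatment, against 44.4% of the 13429 genes with a matched promoter pair. Fold is relative to local background. In reads, 3 of the 12 promoters had an interval above 1 (Kmt2a, Kmt2c and Kmt2d, the last from 1.003), against 7.97% of all genes. The interval lay below 1 at 0 of the 12, against 63.8% of all genes. The 12 promoters had a median of 1347 control reads. Among genes with at least 1000 control reads, the shares were 54.5% below and 10.5% above.

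Kmt2a, which methylates active promoters and is the target of leukaemia translocations, had the largest promoter ratio of the list. Its promoter summit had 1076 reads in control and 1375 in treatment (ratio 1.28, interval 1.18 to 1.39), and a fold of 8.26 and 10.6. Its window is shown with that of Eed, the next writer in this order, at chr9:44881240-44881539 and chr7:89980927-89981226 on the minus strand, with capitals again at searched motifs.
Kmt2a: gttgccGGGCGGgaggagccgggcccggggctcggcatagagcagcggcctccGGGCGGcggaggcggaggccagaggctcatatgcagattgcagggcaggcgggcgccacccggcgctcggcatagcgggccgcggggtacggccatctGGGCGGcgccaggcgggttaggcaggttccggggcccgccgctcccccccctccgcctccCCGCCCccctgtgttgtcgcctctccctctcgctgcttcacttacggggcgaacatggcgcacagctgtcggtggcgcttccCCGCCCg
Eed: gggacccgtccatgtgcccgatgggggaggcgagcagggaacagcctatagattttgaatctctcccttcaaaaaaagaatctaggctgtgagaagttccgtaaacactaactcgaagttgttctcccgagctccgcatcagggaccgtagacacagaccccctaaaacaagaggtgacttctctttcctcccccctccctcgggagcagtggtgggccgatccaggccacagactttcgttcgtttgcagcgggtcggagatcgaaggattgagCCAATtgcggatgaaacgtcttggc

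The Kmt2a window held 36 CG and 5 GGGCGG matches, and the Eed window 17 CG and a single CCAAT. Both had more promoter reads in treatment, and their windows share none of the motifs searched. The Eed summit lay outside its window in both libraries.

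Acetyltransferases had 45 control and 30 treatment peaks, with 35.6% of the control peaks unshared. Ep300 and Crebbp, paralogous coactivators that acetylate enhancer histones, had 5 and 2, and 10 and 6 peaks. With lists of equal length they had 3 and 2, and 6 and 6. The 3 control-only Ep300 peaks had folds of 2.44 to 5.61, and the 4 of Crebbp 2.18 to 4.16, all below the median control fold of the regulators, 7.58. Kat6a and Kat6b, of the MYST family, had 9 and 5, and 16 and 12. Kat6b held the third strongest control-only peak of the 54 loci, chr14:21539728-21540231, with a fold of 12.4 and 224 reads, only 1100 bp from a treatment peak. Kat2a had 5 and 5, and no peak of it was unshared. The Ep300 promoter had 1899 reads in control and 2144 in treatment (ratio 1.13, interval 1.06 to 1.20).

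Lysine demethylases had 41 control and 34 treatment peaks. Kdm2b, which also recruits Polycomb complexes to CG-rich DNA, had 16 and 11, and Kdm4a 4 and 2. Kdm5a and Kdm5b, which demethylate active promoters, each had 4 and 3, and Kdm4c 1 and 1. Kdm6a, an X-linked demethylase that removes the Polycomb mark, was the eraser with the largest excess in treatment, 6 and 8 peaks. Its 3 treatment-only peaks lay 23.9, 24.8 and 29.4 kb downstream of the start, around a shared peak at 28.6 kb whose summit reads were 44 in control and 129 in treatment. The strongest of the 3, chrX:18186390-18186742, had a fold of 4.0 and 75 reads. Leaving out the 2 X-linked genes, Kdm6a and Suv39h1, gave 477 and 369 peaks, a ratio of 0.774. The related Kdm6b had 6 and 6 peaks, all shared, and the second lowest promoter ratio, with 789 reads in control and 511 in treatment (0.648, 0.578 to 0.725).

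Deacetylases had 85 and 75 peaks over 8 genes, and 16.5% (10.1 to 25.8%) of the control peaks were unshared, against 27.5% over all genes. Without Hdac4, the locus with most of these peaks, the share was 23.1% (13.7 to 36.1%). Hdac4, a class IIa enzyme with a 267 kb span, had 33 and 33 peaks, of which 2 were control-only and 3 treatment-only. It had 22 and 33 with lists of equal length. One of the treatment-only peaks, chr1:92086099-92086655, was the strongest treatment-only peak of the 54 loci, with a fold of 5.9 and 223 reads. Hdac1 and Hdac2, the catalytic pair of several corepressor complexes, had 5 and 5, and 1 and 1. Hdac5 had 6 and 6, Hdac3, the enzyme of the NCoR corepressor, 3 and 4, and the NAD-dependent Sirt1 3 and 2. Hdac7, the class IIa enzyme known for its role in thymocytes and CD8+ T cells, had 21 and 14 peaks, and 7 control-only ones. All 7 lay within 3 kb of a treatment peak, with folds of 1.43 to 4.004. The Hdac7 promoter summit had 1476 reads in control and 1147 in treatment (ratio 0.777, interval 0.719 to 0.840).

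The pair Bap1 and Asxl1, a deubiquitinase of histone H2A and its cofactor, had 3 and 1, and 5 and 5 peaks. Bap1 had 1 and 1 with lists of equal length. The 2 control-only Bap1 peaks had 36 and 35 reads. The Bap1 promoter had 1171 reads in control and 1432 in treatment (ratio 1.22, interval 1.13 to 1.32).

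SWI/SNF genes had 109 control and 83 treatment peaks, and most of that gap lay at 1 gene, where it depended on the length of the lists. Arid1b, a DNA-binding subunit with a 353 kb span, had 45 and 30 peaks, of which 18 were control-only and 4 treatment-only. It had 30 and 30 with lists of equal length. Its ratio with 0.5 added, 0.670, fell just short of the 1.5-fold call. Arid1a, its paralogue, had 15 and 10, while Arid2, of the alternative complex, had 13 and 13. Smarca2, an ATPase, had 17 and 15, and Smarcb1, a core subunit, 5 and 4. Without Arid1b the remodellers had a ratio of 0.855 and all regulators 0.793. Smarcc1, a core subunit, had 4 and 2 peaks and held the strongest control-only peak of the whole list. That peak, chr9:110162155-110162789 in the gene body 30.4 kb from the start, had a fold of 18.8 and 310 reads, and the nearest treatment peak lay 29585 bp away.

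Smarca4, the other ATPase of SWI/SNF, had nearly equal numbers, 10 and 9, but 4 control-only and 3 treatment-only peaks. The treatment-only peaks lay 9.3, 43.1 and 63.8 kb from the start, and the control-only ones between 75.8 and 90.7 kb. With lists of equal length its counts were 5 and 9. All 7 had folds of 2.24 to 5.54, below the regulators' median fold in either library. The CHD remodellers Chd3 and Chd4, subunits of the NuRD complex, had 5 and 6, and 7 and 6 peaks. At Chd3 a control peak of 3245 bp at the gene end overlaps 2 treatment peaks of 1470 and 890 bp, and no peak was in 1 library only. With 50 kb on each side Chd3 had 16 and 15, and with peaks of at least 100 reads 5 and 4. The treatment peak that overlaps it most lay outside the promoter window, so Chd3 gave no promoter pair.

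Across the list, sharing differed by where a peak lay. Of 65 control peaks at promoters 1 was unshared (1.54%, 0.272 to 8.21%), against 10.5% over all genes. In gene bodies 86 of 294 were unshared (29.3%, all genes 33.1%), and in flanks 44 of 125 (35.2%, all genes 31.8%). Of 62 treatment promoter peaks 0 were unshared, which allows up to 5.83% by the Wilson interval. Both libraries held a promoter peak at 53 of 54 genes, against 61.5% of all genes, and in 1 library only at 0, against 4.25% in control only and 0.233% in treatment only. All but 1 of the 131 control-only peaks thus lay in gene bodies and flanks.

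**Figure D3:**
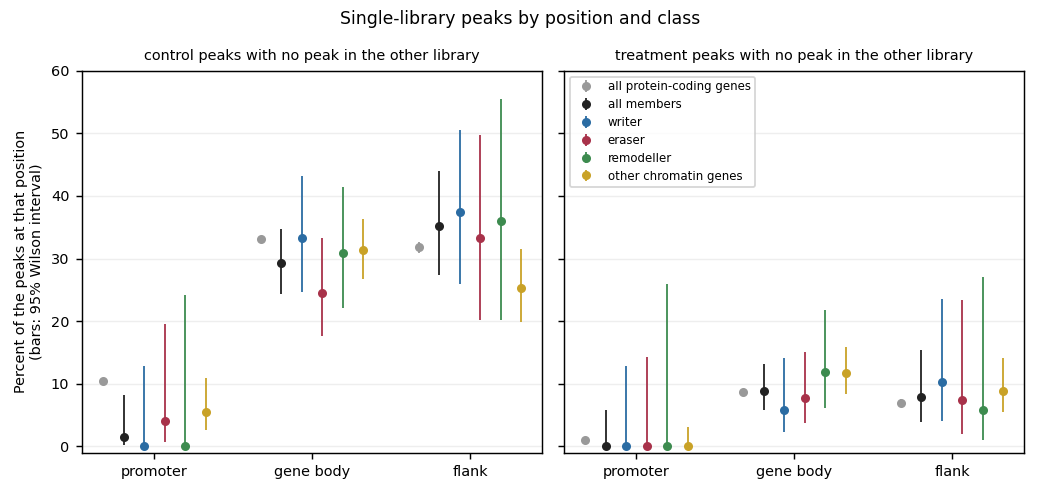
Percent of control peaks (left panel) and treatment peaks (right panel) with no overlapping peak in the other library (y axis) at promoters, in gene bodies and in flanks (x axis), with 95% Wilson intervals. Points are all protein-coding genes, all 54 regulators, 3 classes and 102 other chromatin genes. Promoter points of the regulators lie at 1.54% in control and 0 in treatment.

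Strength went with sharing as well. Shared control peaks of the regulators had a median fold of 9.71 and a median width of 669 bp, and control-only peaks 3.997 and 287 bp. In treatment these were 8.10 and 633 bp for shared and 2.66 and 255 bp for treatment-only peaks. By quartile of fold within the whole list, 50.7, 33.3, 13.95 and 2% of the regulators' control peaks were unshared from the lowest to the highest quartile, against 60.7, 35.2, 11.8 and 1.95% over all genes. Of the 27 treatment-only peaks, 25 lay in the lowest quartile and 0 in the upper pair of quartiles. Over all genes 2634 of 3168 lay in the lowest quartile, and 78 and 10 in the upper pair. The Smarcc1 and Tet2 peaks named above are the 2 unshared control peaks in the highest quartile.

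**Figure D4:**
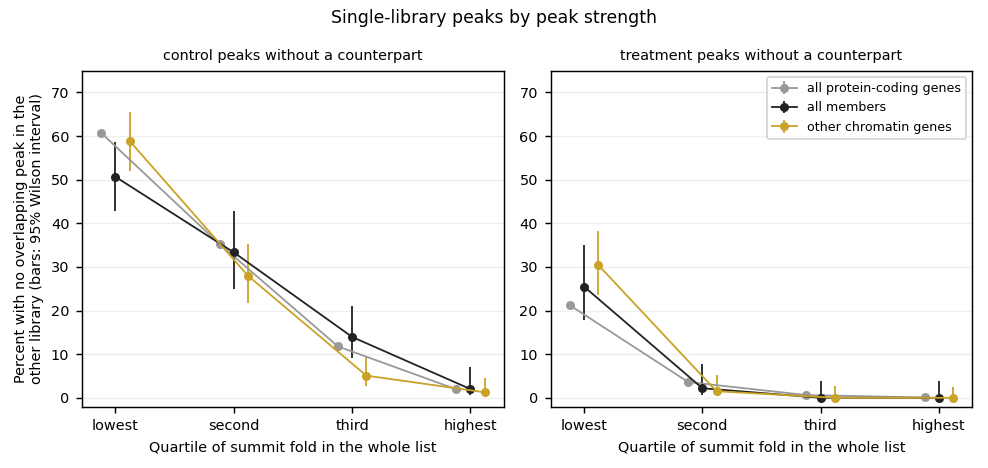
Percent of control (left) and treatment (right) peaks with no overlapping peak in the other library (y axis) by quartile of summit fold in the whole list (x axis), with 95% Wilson intervals. The 54 regulators fall from 50.7% in the lowest to 2% in the highest quartile in control, close to all protein-coding genes.

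Of the 3 larger classes, erasers had the widest peaks by median and remodellers the lowest folds, in both libraries. Median widths in control and treatment were 513.5 and 568 bp in writers, 558 and 648 bp in erasers, 467 and 572 bp in remodellers and 662.5 and 646 bp at Brd2. Median folds were 7.66 and 8.10, 8.38 and 8.02, 6.73 and 6.33, and 4.66 and 5.61 in the same order. Peaks matched between the libraries ran the other way from the list medians of width, with a median log2 width ratio of −0.10 over the regulators and −0.13 over all genes.

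Where a peak was matched in both libraries, the regulators' summits were lower in treatment by less than those of all genes. Over 348 matched pairs the median log2 ratio of treatment to control was −0.12 for fold and −0.30 for summit reads, against −0.22 and −0.47 over the loci of all genes. At promoters the regulators' 61 pairs had medians of 0.06 and −0.01, against −0.04 and −0.26 for all genes. Away from promoters, the 287 pairs had −0.21 and −0.39, against −0.32 and −0.56. In 194 pairs (55.7%) the reads were below control with an interval under 1, and in 45 (12.9%) above it, against 70.4% and 6.97% of all 59877 pairs of the libraries. The medians were −0.34 in writers, −0.25 in erasers and −0.29 in remodellers for reads.

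By gene, the pair with most control reads was used among matched pairs whose peaks both touched the promoter window. Such a pair was found at 52 regulators, all but Hdac9 and Chd3. The median ratio was 1.0015, from 0.642 at Tet1 to 1.28 at Kmt2a. The interval lay below 1 at 15 (background 63.8%) and above at 11 (background 7.97%), and at 26 the interval included 1. The median over all 13429 genes was 0.856, with quartiles of 0.686 and 0.972. Regulator promoters had a median of 1391.5 control reads, and the count was repeated at 1000 or more control reads. Of 40 such regulators 10 were below (background 54.5%) and 10 above (background 10.5%), with a median of 1.01 against 0.918 over 7388 genes. These shares are a description of 1 pair of libraries, and the list was not tested against other lists. The promoter peak was narrower in treatment at 47 of the 52 (background 89.4%), a share near that of all genes, with median widths of 1511.5 and 1390.5 bp.

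**Figure D5:**
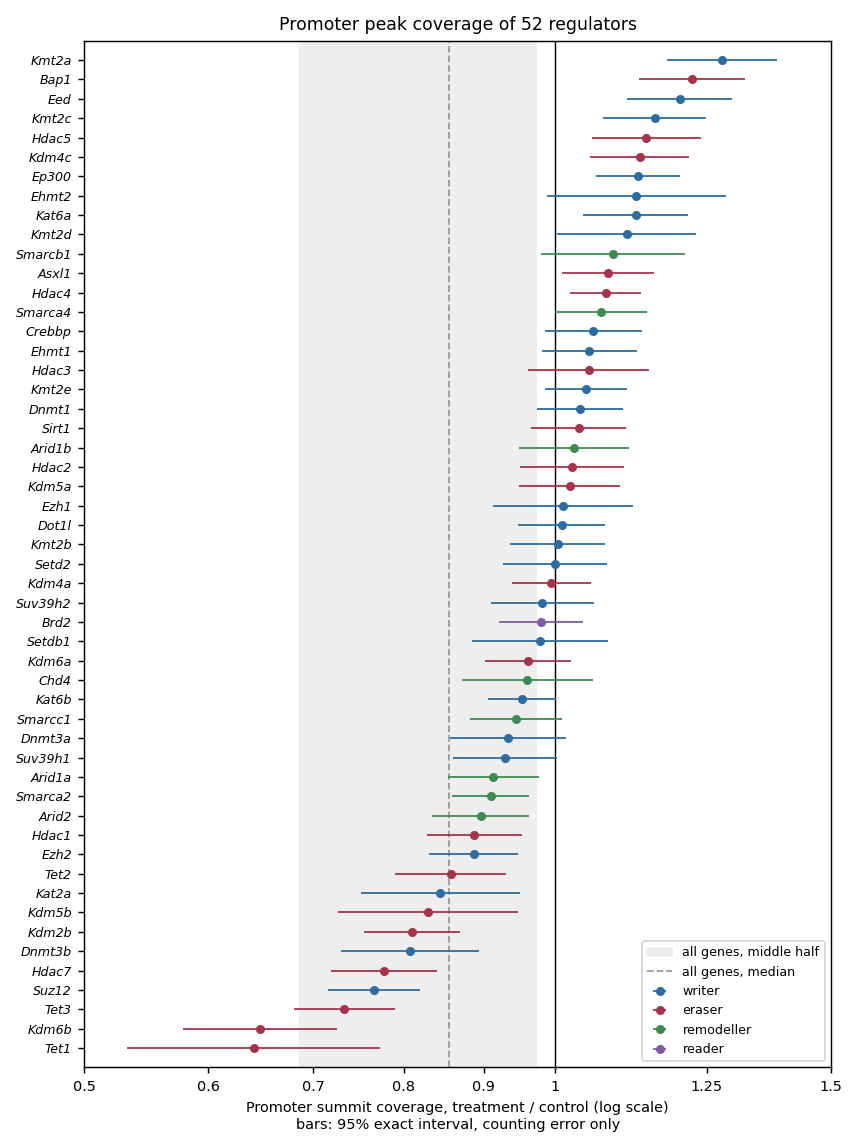
Ratio of treatment to control reads at the promoter summit (x axis, log scale) for the 52 regulators with a matched promoter pair (y axis), with 95% exact intervals. The dashed line and grey band are the median and the middle quartiles over all genes. Tet1, Kdm6b and Tet3 lie lowest, from 0.642 to 0.733, and Eed, Bap1 and Kmt2a highest, from 1.20 to 1.28.

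By class, of 24 writers, 4 were below and 6 above, and of 19 erasers 8 were below and 5 above. Of 8 remodellers 3 were below and 0 above, and the interval of Brd2 included 1. Over all genes 63.8% were below and 7.97% above, and at 1000 or more control reads 54.5 and 10.5%. The fold at the promoter was higher in treatment at 36 of the 52 (background 44.4%), made up of 21 of 24 writers, 9 of 19 erasers, 5 of 8 remodellers and Brd2. No test was made between the classes.

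Related genes of the same families and complexes that are not among the 54 were counted in the same way. Over 102 such genes there were 700 control and 574 treatment peaks, a ratio of 0.820 (0.733 to 0.917), with 24.9% of the control and 8.36% of the treatment peaks unshared. Fewer treatment peaks were found at 62 of them (background 56%), as many at 29 (36.9%) and more at 11 (7.08%), and 16 passed the 1.5-fold call downward (24.7%) and 1 upward (1.72%). That one was Kmt5b, a histone H4 methyltransferase, with 4 and 8 peaks, named after its values were seen. Their 119 promoter pairs had a median log2 read ratio of −0.08, between the regulators and all genes.

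Not every peak of a locus belongs to the named gene. Another protein-coding gene was touched by 14.3% of the control and 15.6% of the treatment peaks, and 7.44% and 8.99% lay at the promoter of another gene. No peak lay in the loci of more than 1 of the 54.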

How the data were processed

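ATAC-seq peak lists of 1 control and 1 treatment library were used. Per the submitters' processing notes, the tools were cutadapt 2.5, Bowtie2 2.3, Picard 2.20 and MACS2, with build mm10. How they were set, how duplicates were treated and whether reads were moved for the transposase is not given in the sources used here. Peaks were called per library. Each deposited peak carries the authors' score, fold enrichment, a ratio to local background, −log10 p-value and −log10 q-value, and the deposited summit offset. No deposited −log10 q-value was below 2.

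Chromosomes 1 to 19, X and Y were used. Peaks of both lists that overlapped by 1 bp or more were called shared, and matched pairs were mutual best overlaps; a promoter pair needed both peaks in the window. Reads covering a summit were recovered as whole numbers from fold and −log10 p, to within 0.001, for 99.9941% of control and 99.9769% of treatment peaks. Read totals were not used here, so depth rests on this coverage and on the most common background. That was 14.2 and 15.0 reads, set over narrowest peaks of 176 and 186 bp. A ratio of reads is not scaled for depth, and its 95% interval is exact binomial. Every interval covers counting error only. No test was made and no p-value is given, as there was 1 library per group. Scripts were tested on simulated data. Python 3.11.15, NumPy 2.4.6, pandas 2.3.3, SciPy 1.17.1 and Matplotlib 3.10.9 were used.

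The members, classes, the 102 related genes, the marker lists (CD8 T, CD4 T, B, myeloid, NK and erythroid cells, and neuron and liver) and the motifs were chosen with earlier results of these data known. The motifs, searched on both strands, were CCGGAAGT (ETS, in 0 of 64 member windows and 5.15% of all), the NRF1 palindrome (4.69 and 1.33%), CCAAT (NFY, 23.4 and 38.2%), GGGCGG (SP), TGACGTCA (CRE, 1.56 and 2.23%), TGTGGT (RUNX, 14.1 and 15.0%), CTTTGA (TCF/LEF, 9.38 and 14.4%) and TGANTCA (AP-1, 7.81 and 6.99%). The lists for CD4 T cells, NK cells, erythroid cells, and neuron and liver had 10, 6, 3 and 22 control peaks and 10, 2, 2 and 13 treatment peaks. Genes named in full were, per class, the one with most control peaks and those with the largest deficit and excess in treatment, every gene past 1.5-fold, the holders of the 5 strongest control-only and 5 strongest treatment-only peaks, and the 3 densest loci; others appear within their role. Alternatives were stricter q-values, a control list cut to the treatment list's length, other flanks, sharing rules, promoter windows, a coverage minimum and another pseudocount.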

Additional observations from a re-analysis of the deposited data

How the results depend on the processing

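The fall in peak number depended on the length of the lists. With the control list reduced to its strongest peaks, as many as in treatment, the ratio of treatment to control peaks was 1.05 over the 54 genes, 1.02 in writers, 1.03 in erasers, 1.09 in remodellers, 1.06 in the related chromatin genes and 1.01 over all genes. Control-only shares were then 15.0% over the list, 14.6, 16.1 and 14.9% in the 3 classes and 11.8% in the related genes, and the treatment-only share 18.5%. Fewer treatment peaks were then found at 17 genes and more at 19, with 7 past 1.5-fold downward and 5 upward. Brd2, Ezh2 and Smarca4 then had 2, 1 and 4 more peaks in treatment, while Tet1 and Tet2 still had 5 and 4 fewer, as differences of −5 and −4. Dnmt1, Suz12, Crebbp, Bap1 and Arid1b then had equal numbers in both libraries. With 50% reciprocal overlap the control-only and treatment-only shares were 32.2 and 13.2%, and with summits within 150 bp 33.5 and 14.8%, with 39.7% control-only in remodellers. At a −log10 q of at least 10 the treatment-only share was 4.11%. Without flanks, 23 genes had as many peaks, 2 passed 1.5-fold upward and Brd2 had 1 more. With 50 kb on each side, 5 had as many and 1 more, and the differences at Dot1l and Chd3 were −5 and −1. Chd3 was also at −1 with peaks of at least 100 reads. A 500 bp promoter window left 2 genes with no promoter peak. Leaving out Tet1 and Tet2, chosen after seeing the data as was leaving out Arid1b or Hdac4, gave erasers a ratio of 0.866. Among the values given for whole lists and classes, 117 recomputations stayed within their interval or within 1.5 times of the count, 21 moved and 5 reversed. Among the values for the genes named in full and for all genes, 79 stayed the same, 97 moved and 8 reversed. The difference at a gene was called moved when it changed at all without changing sign. No paired analysis was possible because each group had 1 library.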
